A study of Mus musculus with 27 samples.

Results

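The genes described here are 34 genes of the hypoxia response and of glycolysis, read in organoids grown from mouse stomach. They are a list of gene symbols, read among 56691 genes in the count table. No measured value enters the list, but it was drawn up with earlier results of these data known. By role they fall into 4 genes of the hypoxia-inducible factor (HIF) subunits and oxygen sensing, 16 genes of glucose uptake, glycolytic enzymes and pyruvate fate, called the glycolysis genes below, and 14 other HIF targets. All but Ero1l were in the table under the listed symbol. Ero1l stood under Ero1a, of which it is a RefSeq synonym, and is called Ero1a here. All 34 were among the 15115 genes that passed the filter on low counts.

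RNA sequencing covered 7 groups of 3 organoid libraries. Gpx4 KO organoids came from Mist1+ cells of mice with the alleles Gpx4F/F, Mist1Cre/ERT2 and RFPLSL, and were read at passages 5, 10 and 15 (P5, P10 and P15). Mist1+ organoids with the genotype label WT, called wild type here, came from Mist1Cre/ERT2;RFPLSL mice and were read at the same passages. Mist1- organoids, also labelled WT, were read at P5. GPX4 is the enzyme that reduces lipid peroxides and holds off ferroptosis, and Mist1 (Bhlha15) is a factor that shapes secretory cells, the chief cells of the gastric corpus among them. Cre/ERT2 was thus driven from the Mist1 locus, and RFP marked cells in which it had acted. The growth protocol names adult mice, sorting of RFP+ cells, Matrigel and 5% CO2 for all groups. How the Mist1- cells were sorted, whether tamoxifen was given and how many mice or lines stand behind a group are not given in the sources used here. Since no label says that the 3 libraries of a group came from separate cultures, p-values measure only the spread between these libraries, which may be technical. Another 6 of the 27 libraries in the series, from sorted cells of mice on 2 diets, were not analysed here.

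HIF is a pair of an oxygen-labile alpha subunit, HIF-1alpha (Hif1a) or HIF-2alpha (Epas1), and the stable partner ARNT. In oxygen, prolyl hydroxylases (Egln1, Egln3) mark the alpha subunit for destruction through VHL. When oxygen is short the pair binds short promoter and enhancer motifs and raises glucose transport, glycolysis, lactate export, angiogenic signals and mitophagy. HIF is controlled mainly as a protein, so the mRNA of its subunits does not measure its activity, and glycolytic genes also answer to other factors, MYC among them. In the lining of the digestive tract, which borders an oxygen-poor lumen, HIF is known for metabolic and barrier genes.

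The promoters of 5 genes are shown as examples, and no result below depends on them. Slc16a3, Bnip3 and Ero1a had some of the widest ranges between groups, Pgk1 had the highest level, and Tpi1 is a glycolytic enzyme with no HIF core motif in the window. The windows run from 250 bases before to 50 after the start, in RefSeq coordinates on GRCm38.p6, 5′ to 3′ on the gene's strand. Capitals mark each match to the HIF core motifs ACGTG and GCGTG on either strand, where a match on the other strand reads CACGT or CACGC. The palindrome CACGTG is a match on both strands that overlap. Slc16a3 lies at chr11:120948817-120949116 (+), Bnip3 at chr7:138909457-138909756 (-), Ero1a at chr14:45318523-45318822 (-), Pgk1 at chrX:106186850-106187149 (+) and Tpi1 at chr6:124814109-124814408 (-).
Slc16a3: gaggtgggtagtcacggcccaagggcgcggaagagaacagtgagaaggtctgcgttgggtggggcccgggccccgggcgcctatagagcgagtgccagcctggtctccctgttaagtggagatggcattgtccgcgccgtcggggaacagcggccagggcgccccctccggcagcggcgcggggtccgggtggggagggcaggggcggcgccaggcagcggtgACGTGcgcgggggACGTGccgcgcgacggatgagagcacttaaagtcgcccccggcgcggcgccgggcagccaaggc
Bnip3: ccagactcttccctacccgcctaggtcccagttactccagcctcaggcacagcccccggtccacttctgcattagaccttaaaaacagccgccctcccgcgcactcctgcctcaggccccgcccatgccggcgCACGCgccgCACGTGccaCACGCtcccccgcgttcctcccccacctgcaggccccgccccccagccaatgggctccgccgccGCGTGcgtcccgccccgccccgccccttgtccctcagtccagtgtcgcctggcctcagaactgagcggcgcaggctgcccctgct
Ero1a: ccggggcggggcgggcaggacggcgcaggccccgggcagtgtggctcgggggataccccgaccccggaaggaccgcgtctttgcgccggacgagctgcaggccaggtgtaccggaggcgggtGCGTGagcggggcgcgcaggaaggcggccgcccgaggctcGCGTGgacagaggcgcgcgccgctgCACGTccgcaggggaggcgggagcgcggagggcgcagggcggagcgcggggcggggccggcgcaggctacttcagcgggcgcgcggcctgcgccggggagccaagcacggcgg
Pgk1: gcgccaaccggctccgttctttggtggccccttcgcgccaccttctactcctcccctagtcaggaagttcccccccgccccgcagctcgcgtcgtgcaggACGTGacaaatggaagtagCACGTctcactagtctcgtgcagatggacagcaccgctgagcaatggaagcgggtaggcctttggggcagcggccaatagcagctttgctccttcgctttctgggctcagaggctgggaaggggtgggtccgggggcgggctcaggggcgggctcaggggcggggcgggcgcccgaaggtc
Tpi1: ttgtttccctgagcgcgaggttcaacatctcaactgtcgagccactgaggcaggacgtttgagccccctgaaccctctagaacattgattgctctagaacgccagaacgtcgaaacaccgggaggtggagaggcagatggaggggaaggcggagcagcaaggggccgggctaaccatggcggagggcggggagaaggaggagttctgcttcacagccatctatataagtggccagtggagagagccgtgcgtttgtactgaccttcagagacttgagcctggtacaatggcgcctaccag
The Slc16a3 window held 2 matches, both ACGTG on the gene's strand, and the Bnip3 window held 5, with 1 palindrome. The Ero1a window held 3 matches and the Pgk1 window 2.

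The RefSeq promoter table matched 31 of the 34 genes, with 45 promoters. Those of Epas1, Bnip3l and Ndrg1 were not found there. At least 1 of the motifs was in 35 of the 45 promoters (77.8%), against 43.8% of all 32851 promoters of the same length. ACGTG alone was in 57.8% of the 45 promoters, against 19.6% of all promoters, and GCGTG in 51.1%, against 32.4% of all. The share with either motif was 76.0% of 25 promoters of glycolysis genes and 76.5% of 17 promoters of other HIF targets. ACGTG was in 48.0% of the promoters of glycolysis genes and 64.7% of those of other HIF targets, and GCGTG in 48.0% and 58.8%. Differences between these shares were not tested. A match is a string of letters and does not show that HIF binds there.

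Total counts ran from 13805585 to 19608956 per library. Expression is given within a gene as TMM-scaled CPM, the counts of a gene relative to its library's total, and between genes as the authors' FPKM, which divides by exonic length. The spread between libraries of a group, as a biological coefficient of variation, was 1.89% to 3.07% in 6 groups and 21.1% in wild type P15. In wild type P15 replicate 1, genes of at most 2721 exonic bases stood 0.96 higher on the log2 scale than genes over 5285 bases, relative to the other groups. The same difference was 0.41 in replicate 3 and 0.01 in replicate 2. Comparisons that rest on wild type P15 were therefore also made with its replicate 2 alone and with an offset for gene length, alternatives chosen after seeing the data. With replicate 2 alone wild type P15 is 1 library, so the test takes its spread from the other groups and assumes that this library varies as they do. Set medians are given under at least 1 of these, and counts of calls under the offset only, since replicate 2 alone is 1 library. Single genes are given where the call was lost and for some others. Values of the remaining genes can differ too. In wild type P15, for example, Adm had 3.36 CPM in replicate 2 and 1.80 and 2.03 CPM in replicates 1 and 3. These libraries also widen the spread that the fit shares over all groups, so counts are given without them where they move by over 1.5 times. Gpx4 itself was present in all Gpx4 KO libraries. It averaged 99.5 ± 1.70, 95.4 ± 6.48 and 85.9 ± 2.46 CPM in Gpx4 KO organoids at P5, P10 and P15, against 130 ± 5.56, 117 ± 6.44 and 142 ± 47.6 CPM in wild type and 115 ± 2.89 CPM in Mist1- organoids (SD, n = 3 each). In Gpx4 KO against wild type its log2 fold change passed at P5 (-0.38, adjusted p = 0.0362) and P15 (-0.72, adjusted p = 0.000215), and did not at P10 (-0.30, adjusted p = 0.094). The P15 value was -0.28 with replicate 2 of wild type alone and -0.44 with the length offset, both called. Which exons the floxed allele removes is not given in the sources used here. Epithelial markers (Epcam, Cdh1, Krt8, Krt18, Krt19) summed to 5500 to 10612 CPM in every library. The fibroblast list stayed at or under 2.43 CPM, endothelial at or under 2.72, erythroid at or under 0.648 and immune at 2.85 to 18.3 CPM. Of the chief cell markers Lipf and Pga5 were at 0 in all libraries.

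Between genes, the glycolysis genes held the highest levels per length. Median FPKM over the 21 libraries was 634 for Pgk1 (phosphoglycerate kinase), 540 for Ldha (lactate dehydrogenase), 460 for Pkm (pyruvate kinase), 417 for Aldoa (aldolase), 354 for Tpi1 (triosephosphate isomerase) and 255 for Eno1 (enolase). Pgam1 (phosphoglycerate mutase) followed at 151 FPKM and Gpi1 (glucose phosphate isomerase) at 103. The steps that control entry stood lower. Slc2a1, the glucose transporter GLUT1, had a median of 49.2 FPKM, the phosphofructokinase genes Pfkl and Pfkp 42.6 and 23.5, and the hexokinases Hk2 and Hk1 38.6 and 22.1. Pdk1, the kinase that shuts pyruvate dehydrogenase, had 26.3 FPKM, Slc16a3, the lactate exporter MCT4, 12.1, and Pfkfb3, which makes the activator of phosphofructokinase, 7.60.

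Among the other HIF targets Ero1a, an oxidase that drives disulfide formation in the endoplasmic reticulum, was highest, with a median of 191 FPKM. Car9, a carbonic anhydrase at the cell surface, had 105 FPKM. The mitophagy receptors Bnip3 and Bnip3l had 76.4 and 61.7 FPKM. Ddit4, an inhibitor of mTORC1, had 28.3 FPKM, Vegfa, the angiogenic growth factor, 27.9, and the collagen prolyl hydroxylases P4ha1 and P4ha2 27.5 and 7.59. Higd1a, a mitochondrial protein, had 20.1 FPKM, Ndrg1, a stress-induced cytoplasmic protein, 14.7, and Kdm3a, a histone demethylase, 13.6. Ankrd37 had 9.87 FPKM, and Mxi1, a MYC antagonist (6.40), and Adm, the vasodilator peptide adrenomedullin (5.56), were lowest. Of the oxygen sensing genes, Egln3 had 66.7 FPKM, Hif1a 48.4, Egln1 22.5 and Epas1, the lowest of all 34, 5.54. Several of these ranges cross, since Ero1a alone spanned 46.2 to 426 FPKM.

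Some counts could be shared with other genes. Strand use in counting is not given in the sources used here. Slc16a3 overlaps Csnk1d on the other strand by 1879 bases, and Csnk1d had 265% of its counts. Ankrd37 overlaps Ufsp2 by 57 bases and Pfkp overlaps Pitrm1 by 748 bases, with 497% and 24.9% of their counts. Log2 fold changes of Csnk1d between Gpx4 KO and wild type were -0.07, -0.02 and 0.03 at P5, P10 and P15, and none passed the test. Ufsp2 passed it at P15 (0.26), and Pitrm1 at each passage (0.34, 0.45 and -0.22). Eno1b, a near-identical copy, had 0.868% of the counts of Eno1, so reads of Eno1 could be split.

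**Figure D1:**
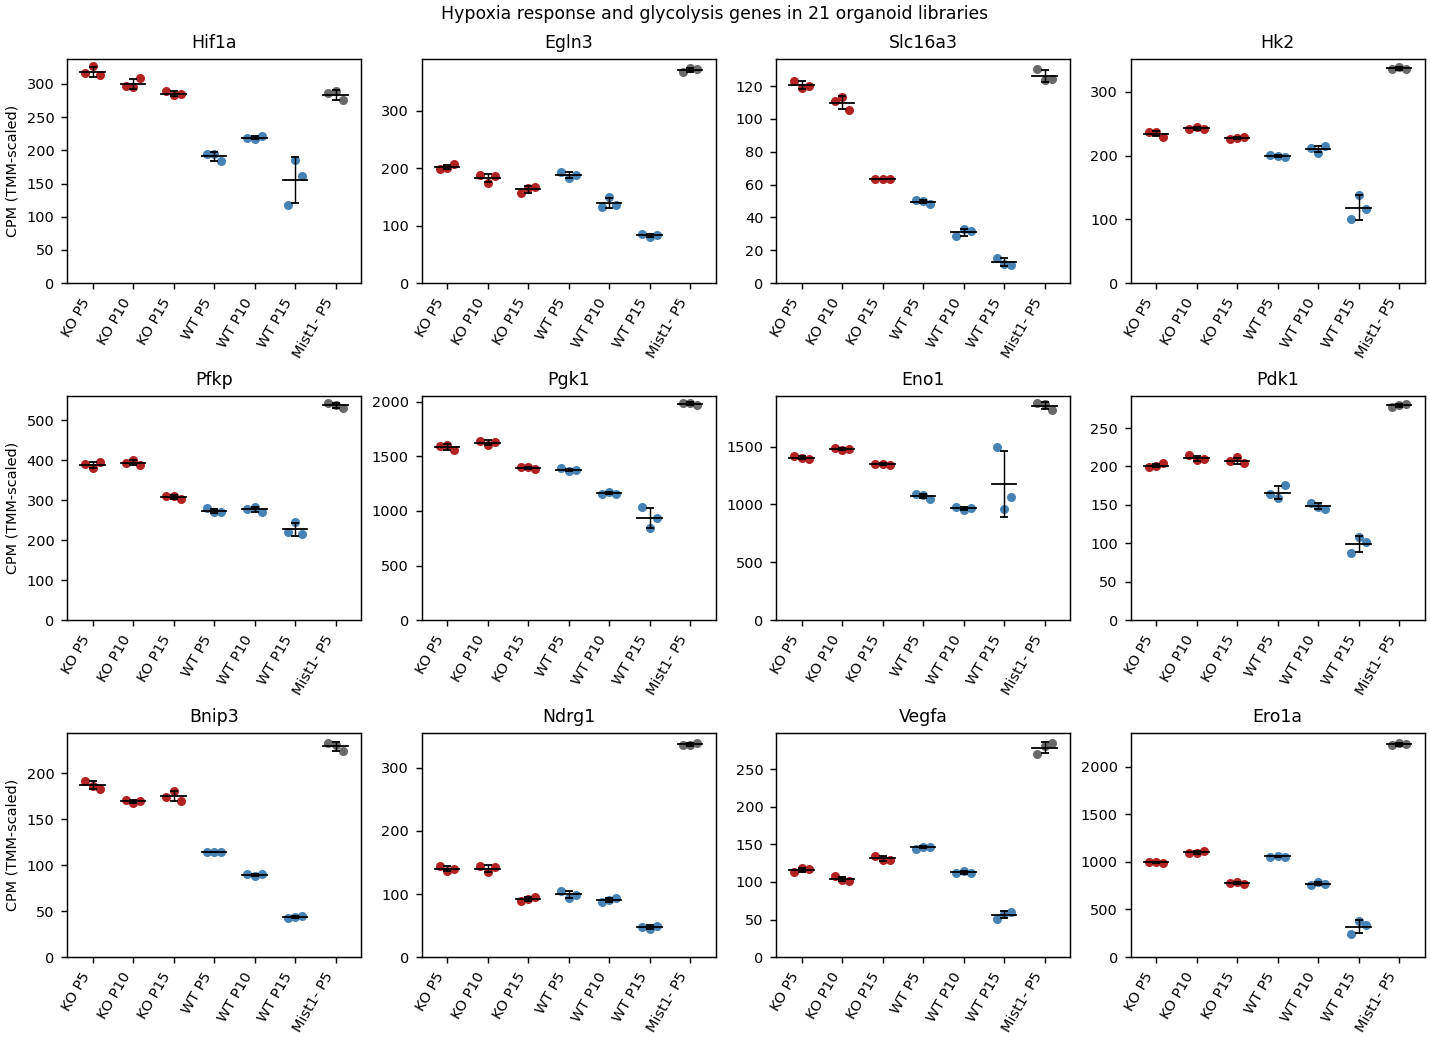
TMM-scaled CPM (y axis from 0) of 12 of the 34 genes in each of the 21 libraries, by group on the x axis with Gpx4 KO in red, wild type in blue and Mist1- in grey. Each point is a library, and the horizontal line and bar are the mean and SD of 3 libraries. Slc16a3 and Bnip3 are higher in Gpx4 KO than in wild type at every passage, and wild type P15 is the lowest group for 11 of the 12 genes, Eno1 being the exception.

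At P5, nearly the whole set was lower in Mist1+ than in Mist1- organoids. All 16 glycolysis genes were lower, as were all 4 oxygen sensing genes and 10 of the 14 other HIF targets, while Ankrd37 and Ddit4 were higher. In all, 2 of 34 genes were called higher and 30 lower, against 18.8% of all genes called higher and 16.2% called lower in that comparison (edgeR's quasi-likelihood test, Benjamini-Hochberg adjusted p under 0.05). The median log2 fold change was -0.52 for the glycolysis genes and -0.63 for the other HIF targets, against 0.00 for all genes tested. In bulk RNA, fewer cells of a type and less RNA per cell cannot be told apart, here and in every comparison below. Without wild type P15 in the fit, Higd1a and Kdm3a also passed, among 7880 genes called of all tested in place of 5290.

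The 3 libraries of each group lay close together. Ndrg1 had 105, 94.3 and 98.7 CPM in Mist1+ libraries, against 335, 336 and 340 CPM in Mist1- libraries. No library of Mist1+ organoids came near those of Mist1-, and the log2 fold change was -1.76 ± 0.06 (SE, adjusted p = 5.00e-16). Slc16a3, the lactate exporter, had 50.5, 50.0 and 48.3 CPM in Mist1+ and 130, 124 and 124 CPM in Mist1- organoids, a log2 fold change of -1.35 ± 0.07 (adjusted p = 4.69e-12). Ero1a had 1056, 1066 and 1050 CPM in Mist1+ and 2222, 2250 and 2232 CPM in Mist1- organoids. It fell by 1.08 ± 0.09 on the log2 scale (adjusted p = 5.13e-09), and the groups of none of these genes overlapped.

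Of the other called genes, Bnip3 fell by 1.01 and P4ha2 by 0.96 on the log2 scale among the other HIF targets. Pfkp fell by 0.98, Eno1 by 0.79 and Pfkl by 0.77 among the glycolysis genes, so the largest falls in that set were at phosphofructokinase, enolase and lactate export. The smallest were in Hk1, with 219, 224 and 218 CPM in Mist1+ against 244, 248 and 248 CPM in Mist1- organoids, and in Pgam1. The oxygen sensing genes Egln3, Egln1, Hif1a and Epas1 fell by 0.98, 0.69, 0.57 and 0.47. The hydroxylase genes thus had the larger values and the subunits whose protein they modify the smaller, and differences between genes were not tested.

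Ankrd37 and Ddit4 went the other way. Ddit4 had 103, 94.8 and 102 CPM in Mist1+ libraries and 70.9, 69.1 and 68.6 CPM in Mist1- libraries, a log2 fold change of 0.52 ± 0.05 (adjusted p = 5.06e-08). Ankrd37 was low in all libraries, with 20.9, 24.3 and 22.4 CPM in Mist1+ and 15.2, 12.9 and 16.0 CPM in Mist1- organoids, and rose by 0.62 ± 0.13 (adjusted p = 0.000577). Markers of other kinds moved between the same groups. The 9 stomach epithelium markers summed to 5903 to 6069 CPM in Mist1+ and 2337 to 2394 CPM in Mist1- organoids, and 6 were called higher and 1 lower. The 7 immune markers summed to 13.8 to 15.3 CPM in Mist1+ and 16.4 to 18.3 CPM in Mist1- organoids, with 1 of 3 tested called lower. The 1 endothelial marker tested was called lower, at a summed 0.706 to 1.03 CPM in Mist1+ and 1.72 to 2.72 CPM in Mist1- organoids. Their part in these differences was not tested.

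Set against wild type at P5, Gpx4 KO organoids had more RNA of the glycolysis genes, and the other HIF targets were split. Of the 34 genes 16 were called higher and 4 lower, against 13% of all genes called higher and 17% called lower. Among the glycolysis genes 10 were higher and Hk1 was lower, with a median log2 fold change of 0.21. Of the other HIF targets 4 were higher, 3 were lower and 7 did not pass, with a median of -0.03. Hif1a and Egln1 were higher. Fitted on the 6 libraries of these groups alone, 24 genes were called higher and 8 lower, among 7196 genes called of all tested in place of 4547.

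Slc16a3 differed most among the glycolysis genes. It had 123, 119 and 120 CPM in Gpx4 KO libraries, against 50.5, 50.0 and 48.3 CPM in wild type. That is 2.43 times the wild-type mean and a log2 fold change of 1.28 ± 0.07 (adjusted p = 2.04e-11), with no overlap. Pfkp rose by 0.51, Eno1 by 0.39 and Pfkl by 0.36 on the log2 scale. Hk1, the hexokinase gene of most tissues, fell by 0.26 to 182, 184 and 186 CPM in Gpx4 KO, against 219, 224 and 218 CPM in wild-type libraries. Hk2, its inducible counterpart, had 237, 236 and 230 CPM in Gpx4 KO and 200, 199 and 198 CPM in wild-type libraries (adjusted p = 0.0154), so the hexokinase genes moved in opposite directions.

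The mitophagy receptor Bnip3 had 192, 187 and 183 CPM in Gpx4 KO libraries at P5, against 114, 114 and 114 CPM in wild type, a log2 fold change of 0.72 ± 0.04 (adjusted p = 5.73e-11). P4ha2 rose by 0.55, Ndrg1 by 0.50 and Car9 by 0.19. Ddit4 fell furthest, to 36.1, 37.4 and 35.0 CPM in Gpx4 KO libraries, against 103, 94.8 and 102 CPM in wild type (log2 fold change -1.47 ± 0.05, adjusted p = 1.38e-14). Ankrd37 fell by 1.19 and Vegfa by 0.33. Ddit4 and Ankrd37 are the genes that were higher in Mist1+ than in Mist1- organoids, and the wild-type P5 libraries are shared by both comparisons. Hif1a had 316, 327 and 313 CPM in Gpx4 KO and 195, 195 and 184 CPM in wild-type libraries (log2 fold change 0.74 ± 0.10, adjusted p = 3.72e-06), and Egln1 rose by 0.42. Stomach epithelium markers summed to 2714 to 2761 CPM in Gpx4 KO and 5903 to 6069 CPM in wild type, with 1 of 8 tested called higher and 6 lower, and the immune list to 9.75 to 10.7 CPM in Gpx4 KO and 13.8 to 15.3 CPM in wild type, with 1 of 3 tested called lower. Epithelial markers summed to 6824 to 6982 CPM in Gpx4 KO and 9002 to 9061 CPM in wild type, with 1 of 5 called higher and 2 lower. Chief cell markers summed to 17.9 to 20.5 CPM in Gpx4 KO and 33.1 to 38.2 CPM in wild type, with 1 of 2 tested called higher and 1 lower. Parietal cell markers summed to 1.62 to 2.16 and 0.686 to 1.06 CPM, with the 1 tested called higher. Their part was not tested.

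At P10 more of the set was higher in Gpx4 KO organoids, with 24 of 34 genes called higher and 4 lower, against 15.9% and 18.5% of all genes. The glycolysis genes split into 12 higher and 1 lower, with a median log2 fold change of 0.41, and the other HIF targets into 9 higher and 2 lower, with a median of 0.36. Slc16a3 had 111, 113 and 105 CPM in Gpx4 KO and 28.7, 32.7 and 31.5 CPM in wild-type libraries. Its log2 fold change was 1.83 ± 0.08 (adjusted p = 1.50e-13), or 3.54 times the wild-type mean. Pgam1, which had not passed at P5 (adjusted p = 0.407), had 391, 383 and 394 CPM in Gpx4 KO and 250, 255 and 238 CPM in wild-type libraries (0.65 ± 0.05, adjusted p = 4.73e-10). Eno1 rose by 0.61 and Pfkp by 0.51. Hk1 was the glycolysis gene called lower (-0.17, adjusted p = 0.0086). It lost the call without Gpx4 KO P10 replicate 1 (adjusted p = 0.0536), without the low-count filter (-0.15, adjusted p = 0.179), with library totals alone (-0.09, adjusted p = 0.18) and in limma at either pseudocount (-0.09, adjusted p = 0.141 and 0.147).

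Among the other HIF targets at P10, Bnip3 had 171, 168 and 170 CPM in Gpx4 KO and 90.0, 88.3 and 90.6 CPM in wild-type libraries, a rise of 0.92 ± 0.04 (adjusted p = 1.47e-12). Higd1a rose by 0.76, P4ha2 by 0.66 and Ndrg1 by 0.63. Ankrd37 fell by 1.13 and Ddit4 by 0.97, to 36.6, 34.9 and 37.7 CPM of Ddit4 in Gpx4 KO libraries, against 74.4, 69.1 and 70.9 CPM in wild type. The HIF subunits parted at P10. Hif1a rose by 0.45, with 297, 295 and 308 CPM in Gpx4 KO and 218, 217 and 222 CPM in wild-type libraries, and Epas1 fell by 0.82 ± 0.10 (adjusted p = 1.88e-06), with 20.4, 22.5 and 23.4 CPM in Gpx4 KO and 39.0, 39.3 and 39.0 CPM in wild-type libraries. Egln1 rose by 0.55 and Egln3 by 0.39. Stomach epithelium markers summed to 3533 to 3685 CPM in Gpx4 KO and 7921 to 8180 CPM in wild type, with 6 of 8 tested called lower and 1 higher. Epithelial markers summed to 6574 to 6789 CPM in Gpx4 KO and 8397 to 8543 CPM in wild type, with 2 of 5 called lower. Chief cell markers summed to 21.0 to 23.9 CPM in Gpx4 KO and 28.4 to 29.3 CPM in wild type, with 1 of 2 tested called lower. Their part was not tested.

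At P15 most of the set was again higher in Gpx4 KO organoids, with the largest values in the lactate exporter Slc16a3 and the mitophagy receptor Bnip3. Of 34 genes 26 were called higher in Gpx4 KO and 2 lower, against 23.6% and 25.3% of all genes. Among the glycolysis genes 12 were higher and 4 did not pass, with a median log2 fold change of 0.34, and among the other HIF targets 11 were higher and 1 lower, with a median of 0.72. With wild type P15 represented by its replicate 2 alone, the medians were 0.48 for the glycolysis genes and 0.84 for the other HIF targets. These medians set 1 wild-type library against 3 of Gpx4 KO. With the gene length offset 26 genes were higher and 2 lower, among 7227 genes called of all tested. Libraries of the groups overlapped for 8 genes, Slc2a1, Pfkl, Aldoa, Tpi1, Eno1, Pkm, Higd1a and Mxi1. Overlap was not counted over all genes, so no background share stands beside this count.

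Bnip3 had 174, 181 and 170 CPM in Gpx4 KO libraries at P15, against 42.7, 43.7 and 45.0 CPM in wild type. That is 4.00 times the wild-type mean, a log2 fold change of 2.00 ± 0.05 (adjusted p = 3.05e-18), and the 3 wild-type libraries, which differ elsewhere, lay close together for this gene. Slc16a3 had 63.2, 63.3 and 63.2 CPM in Gpx4 KO and 15.3, 11.4 and 11.2 CPM in wild-type libraries (2.33 ± 0.08, adjusted p = 4.03e-15). Adm, present at low counts, had 11.5, 8.35 and 9.20 CPM in Gpx4 KO and 1.80, 3.36 and 2.03 CPM in wild-type libraries (1.99 ± 0.17, adjusted p = 9.62e-09). Ero1a rose by 1.27 ± 0.09, with 780, 785 and 763 CPM in Gpx4 KO and 247, 381 and 334 CPM in wild-type libraries. Vegfa rose by 1.21 ± 0.05, with 134, 130 and 130 CPM in Gpx4 KO and 51.3, 57.6 and 60.6 CPM in wild-type libraries, although it had been lower in Gpx4 KO at P5.

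Among the glycolysis genes at P15, the largest differences after Slc16a3 were in Pfkfb3, Pdk1 and Hk2. Pfkfb3 had 63.6, 62.6 and 60.1 CPM in Gpx4 KO and 17.5, 29.4 and 24.1 CPM in wild-type libraries (1.38 ± 0.11, adjusted p = 1.22e-09). Pdk1 rose by 1.07 and Hk2 by 0.94. With replicate 2 of wild type alone the values were 1.07 for Pfkfb3, 0.94 for Pdk1 and 0.72 for Hk2, and with the length offset 1.24, 0.90 and 0.87, all of them called. Aldoa, Slc2a1, Pkm and Eno1 did not pass (adjusted p = 0.912, 0.509, 0.473 and 0.0917). Eno1 shows the spread of the wild-type group, with 1351, 1353 and 1343 CPM in Gpx4 KO and 1498, 961 and 1062 CPM in wild-type libraries. Replicate 1 lay above every Gpx4 KO library and the others below.

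Hif1a had 290, 283 and 284 CPM in Gpx4 KO libraries at P15 and 118, 186 and 162 CPM in wild type, and rose by 0.88 ± 0.10 (adjusted p = 2.20e-07). Egln3 rose by 0.97 (1.01 with replicate 2 of wild type alone and 1.13 with the length offset) and Egln1 by 0.29, the call of Egln1 being lost when the groups were fitted alone (adjusted p = 0.0867). Epas1 fell by 0.57, with 25.5, 27.5 and 29.2 CPM in Gpx4 KO and 33.2, 46.8 and 41.4 CPM in wild-type libraries. Ddit4 was the other gene called lower (-0.17, adjusted p = 0.0123). It lost the call with replicate 2 of wild type alone (-0.13, adjusted p = 0.171), without the low-count filter (adjusted p = 0.2) and with the groups fitted alone (adjusted p = 0.179), and its sign turned with the gene length offset (0.07, adjusted p = 0.498). Its difference of 43.5, 43.3 and 44.7 CPM in Gpx4 KO against 49.6, 47.7 and 50.8 CPM in wild type was small beside that at P5. Stomach epithelium markers had turned too, with 5852 to 5940 CPM in Gpx4 KO and 2010 to 2713 CPM in wild type and 7 of 8 tested called higher. Immune markers summed to 2.85 to 3.56 CPM in Gpx4 KO and 7.02 to 12.2 CPM in wild type, 2 of 3 tested being called lower. Endothelial markers summed to 1.09 to 2.00 CPM in Gpx4 KO and 0.431 to 0.766 CPM in wild type, with the 1 tested called higher. Epithelial markers summed to 5500 to 5515 CPM in Gpx4 KO and 7088 to 10612 CPM in wild type, with 3 of 5 called lower, and chief cell markers to 20.9 to 25.8 CPM in Gpx4 KO and 10.0 to 10.8 CPM in wild type, with both of those tested called higher. Their part was not tested.

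**Figure D2:**
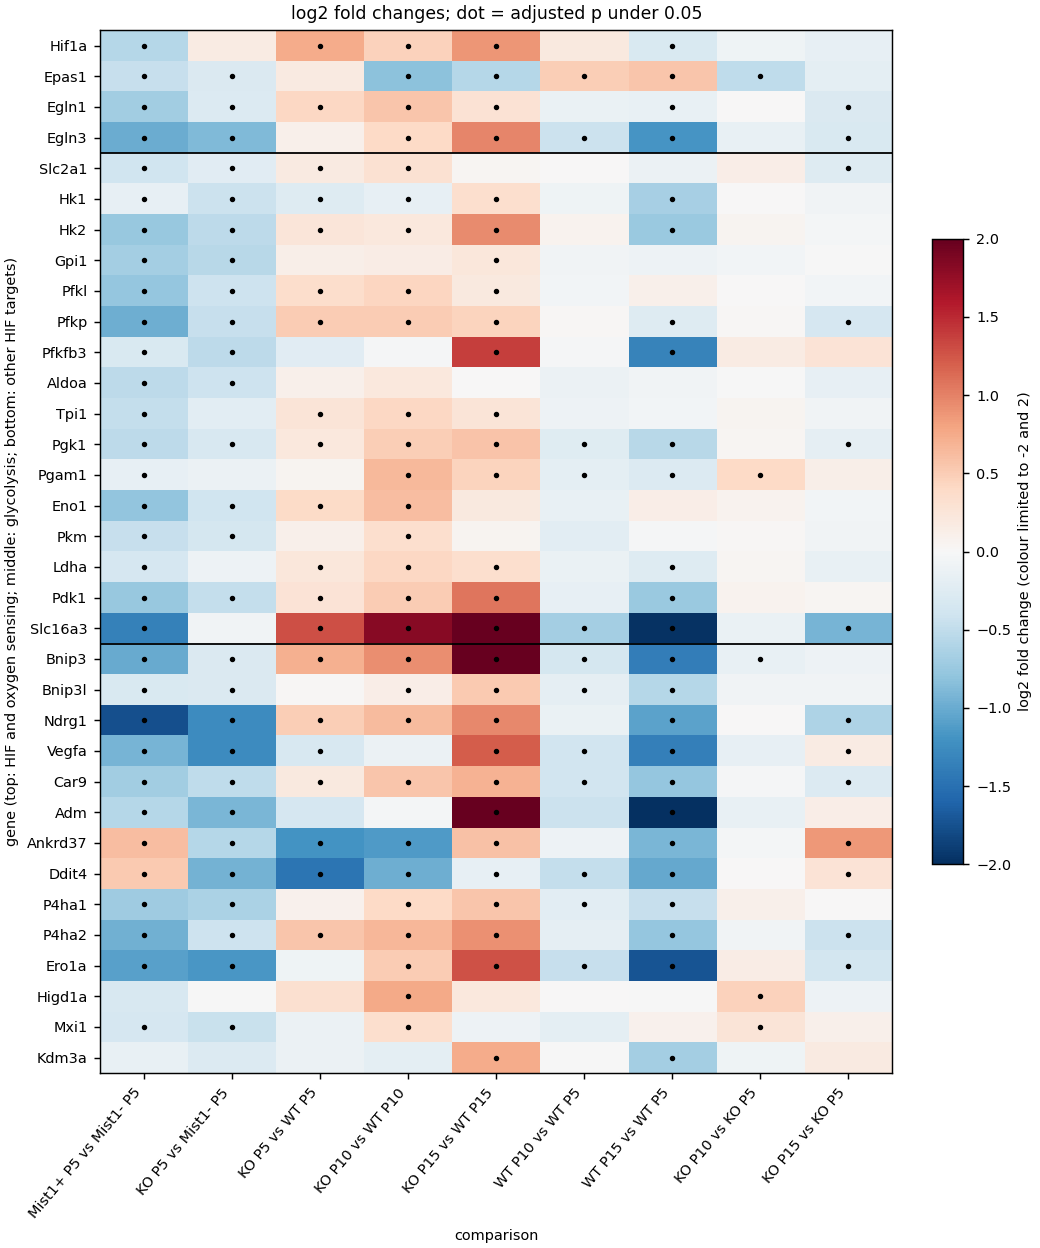
Log2 fold changes (colour, limited to -2 and 2) of the 34 genes, in rows by role, in 9 comparisons, in columns, with a dot where the adjusted p was under 0.05. The Mist1+ against Mist1- column is blue except for Ankrd37 and Ddit4, and the wild type P15 against P5 column is deep blue for most other HIF targets.

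With passage, more of the set was lower than higher in wild-type organoids. At P10 against P5, 1 of 34 genes was called higher and 11 lower, against 2.04% and 2.84% of all genes. Lower were 3 glycolysis genes (Slc16a3, Pgk1, Pgam1), 7 other HIF targets and Egln3, and Epas1 was higher. Slc16a3 had 28.7, 32.7 and 31.5 CPM at P10 and 50.5, 50.0 and 48.3 CPM at P5, a log2 fold change of -0.68 ± 0.08 (adjusted p = 5.71e-06). Ddit4 fell by 0.48, Ero1a by 0.46, Vegfa by 0.38 and Car9 by 0.38. Without wild type P15 in the fit 3 genes were called higher and 24 lower, among 2765 genes called in place of 738, with 11 glycolysis genes and 11 other HIF targets lower. Pgk1 (-0.25, adjusted p = 0.00897) lost its call without wild type P5 replicate 1 (adjusted p = 0.0588), and Pgam1 (-0.20, adjusted p = 0.00994) lost it without wild type P10 replicate 3 or P5 replicate 1 or 2, with an adjusted p up to 0.0809, without the low-count filter (adjusted p = 0.193) and with the length offset (adjusted p = 0.16). Stomach epithelium markers summed to 7921 to 8180 CPM at P10 and 5903 to 6069 CPM at P5, with 3 of 8 tested called higher and 1 lower. Immune markers summed to 7.79 to 8.68 CPM at P10 and 13.8 to 15.3 CPM at P5, with 1 of 3 called lower, and chief cell markers to 28.4 to 29.3 CPM at P10 and 33.1 to 38.2 CPM at P5, with 1 of 2 called lower. Parietal cell markers summed to 1.74 to 2.28 CPM at P10 and 0.686 to 1.06 CPM at P5, with the 1 tested called higher. Their part was not tested.

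At P15 most of the other HIF targets and 9 of the 16 glycolysis genes were lower than at P5. In all, 1 of 34 genes was called higher and 24 lower, against 24.7% and 26.6% of all genes. Of the other HIF targets 12 of 14 were lower, with a median log2 fold change of -0.84, and the median of the glycolysis genes was -0.26. With replicate 2 of P15 alone the medians were -0.96 for the other HIF targets and -0.35 for the glycolysis genes. Those values rest on 1 library of P15. With the gene length offset 12 of 14 other HIF targets (median -0.96) and 11 of 16 glycolysis genes (median -0.31) were lower. The fit with the offset called 7756 of all genes tested. The difference between the sets was not tested. Markers moved between the same groups. Stomach epithelium markers summed to 2010 to 2713 CPM at P15 and 5903 to 6069 CPM at P5, with 6 of 8 tested called lower. Immune markers summed to 7.02 to 12.2 CPM at P15 and 13.8 to 15.3 CPM at P5, with all 3 tested lower, and chief cell markers to 10.0 to 10.8 CPM at P15 and 33.1 to 38.2 CPM at P5, with both tested lower. Parietal cell markers went the other way, with 2.83 to 4.25 CPM at P15 and 0.686 to 1.06 CPM at P5 and the 1 tested called higher. Of the epithelial markers 1 of 5 was called lower. Their part was not tested.

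Adm had 1.80, 3.36 and 2.03 CPM in wild type at P15 and 11.6, 9.88 and 11.9 CPM at P5, a log2 fold change of -2.19 ± 0.17 (adjusted p = 1.98e-09). Ero1a had 247, 381 and 334 CPM at P15 and 1056, 1066 and 1050 CPM at P5 (-1.72 ± 0.09, adjusted p = 3.83e-12). Vegfa fell by 1.37 and Bnip3 by 1.38, the latest passage being the lowest of the 3 for each of these genes. Bnip3 averaged 114 ± 0.0992, 89.6 ± 1.16 and 43.8 ± 1.14 CPM at P5, P10 and P15 (SD, n = 3 each), a fall at each step with no overlap. Slc16a3 had 15.3, 11.4 and 11.2 CPM at P15, against the 48.3 to 50.5 CPM of P5, and fell by 1.98 ± 0.08 (adjusted p = 6.69e-14). Pfkfb3 fell by 1.33, Hk2 by 0.75 and Pdk1 by 0.75.

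The oxygen sensing genes of wild type did not move as a block between P5 and P15. Egln3 averaged 188 ± 5.52, 139 ± 8.88 and 83.0 ± 2.33 CPM at P5, P10 and P15 and fell by 1.18 ± 0.05 at P15 (adjusted p = 2.14e-13). Epas1 averaged 27.7 ± 2.11, 39.1 ± 0.173 and 40.5 ± 6.85 CPM and rose by 0.55 at P15 and by 0.49 at P10. Hif1a fell by 0.30 at P15 (adjusted p = 0.0128), but its 118, 186 and 162 CPM overlap the 195, 195 and 184 CPM of P5, and the call was lost with replicate 2 of P15 alone (-0.04, adjusted p = 0.479) and without P15 replicate 1 or P5 replicate 1 or 2, with an adjusted p up to 0.0692. It was also lost with library totals alone, with the groups fitted alone and in limma, with an adjusted p up to 0.222. Egln1 fell by 0.16, a call lost without P15 replicate 2 (adjusted p = 0.179) or any P5 library, and under 5 other alternatives with an adjusted p up to 0.415.

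**Figure D3:**
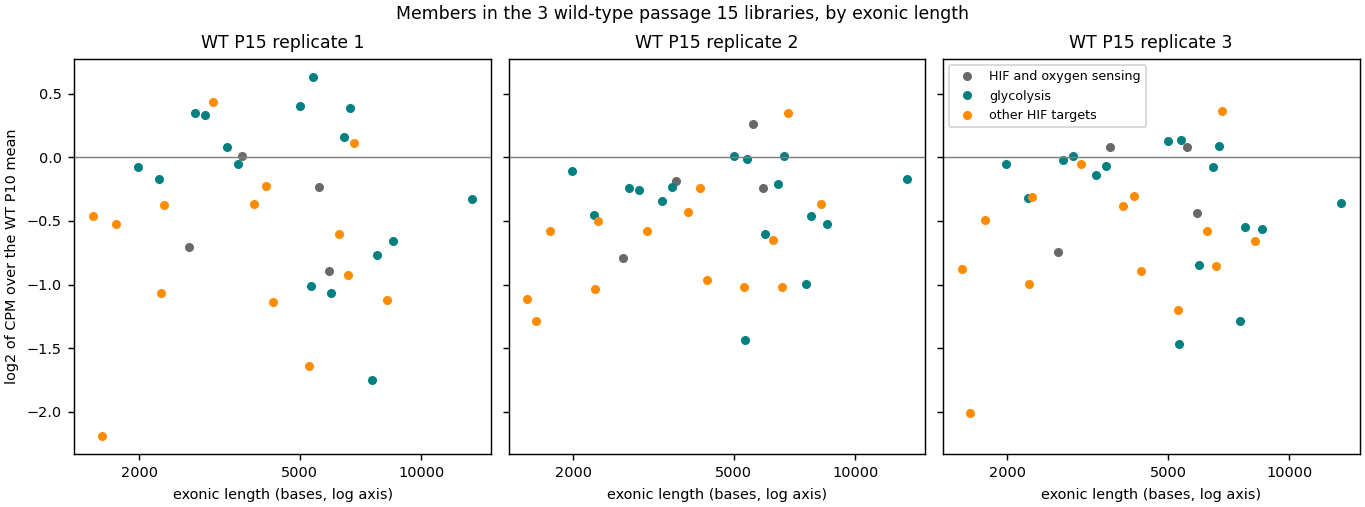
The 34 genes in each of the 3 wild type P15 libraries, as the log2 of CPM over the mean of wild type P10 (y axis), against exonic length in bases (x axis, log scale), with colours for the 3 roles. Most of the other HIF targets lie below 0 in all 3 libraries, with medians of -0.57, -0.62 and -0.62, and the glycolysis genes lie nearer to 0, with medians of -0.07, -0.25 and -0.11.

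In Gpx4 KO organoids 5 genes were called at P10 against P5 and 13 at P15 against P5, where wild type had 12 and 25. With the compared groups fitted alone these were 15 and 27 in Gpx4 KO organoids and 27 and 20 in wild type, so the order at P15 turned. The calls over all genes at P15 turned too. They were 1960 in Gpx4 KO and 7761 in wild type, and 4637 and 3679 with the groups fitted alone. At P10 against P5, 3 of 34 genes were called higher and 2 lower, against 3.89% and 3.72% of all genes. Pgam1 rose to 391, 383 and 394 CPM at P10, against 303, 293 and 288 CPM at P5 (0.40 ± 0.05, adjusted p = 2.96e-06), and Epas1 fell by 0.50 ± 0.10 (adjusted p = 0.00231). Higd1a (0.46, adjusted p = 0.0466), Mxi1 (0.26, adjusted p = 0.0314) and Bnip3 (-0.14, adjusted p = 0.0493) also passed. The calls of Higd1a and Bnip3 were lost without each of the 6 libraries, with an adjusted p up to 0.169 for Higd1a and 0.201 for Bnip3 without Gpx4 KO P5 replicate 1, and that of Mxi1 without each but P10 replicate 3, up to 0.132 without P10 replicate 2. Other alternatives also ended these calls, 5 for Higd1a (adjusted p up to 0.0616), 4 for Mxi1 (up to 0.15) and 4 for Bnip3 (up to 0.391). Without wild type P15 in the fit 10 genes were called higher and 8 lower, among 3327 genes called in place of 1150. The stomach epithelium list summed to 3533 to 3685 CPM at P10 and 2714 to 2761 CPM at P5, with 4 of 8 tested called higher and 1 lower. Chief cell markers summed to 21.0 to 23.9 CPM at P10 and 17.9 to 20.5 CPM at P5, with 1 of 2 tested called higher and 1 lower. Of the epithelial markers 1 of 5 was called lower, and the part of these markers was not tested.

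At P15 against P5 in Gpx4 KO organoids, 3 genes were called higher and 10 lower, against 5.77% and 7.2% of all genes, and the set medians were -0.07 for glycolysis genes and -0.03 for other HIF targets. Slc16a3 fell by 0.93 ± 0.07 (adjusted p = 5.23e-09), with 63.2, 63.3 and 63.2 CPM at P15 and 123, 119 and 120 CPM at P5. Ndrg1 fell by 0.61, P4ha2 by 0.42, Ero1a by 0.36, Pfkp by 0.34, Egln3 by 0.31, Egln1 by 0.29, Car9 by 0.27 and Slc2a1 by 0.25. Ankrd37 had 18.7, 16.9 and 18.4 CPM at P15 and 9.47, 10.6 and 9.48 CPM at P5 (0.87 ± 0.13, adjusted p = 6.66e-05), and Ddit4 rose by 0.28. Pgk1 (-0.18, adjusted p = 0.0321) and Vegfa (0.17, adjusted p = 0.0349) lost their calls without each of the 6 libraries, with an adjusted p up to 0.106 for Pgk1 without Gpx4 KO P5 replicate 2 and 0.136 for Vegfa without Gpx4 KO P5 replicate 1. That of Vegfa was also lost under 4 other alternatives (adjusted p up to 0.225). Without wild type P15 in the fit 6 genes were called higher and 20 lower, among 4494 genes called in place of 1960, 10 of them glycolysis genes that were lower. Stomach epithelium markers summed to 5852 to 5940 CPM at P15 and 2714 to 2761 CPM at P5, with 6 of 8 tested called higher. Immune markers summed to 2.85 to 3.56 CPM at P15 and 9.75 to 10.7 CPM at P5, with 2 of 3 called lower, and epithelial markers to 5500 to 5515 CPM at P15 and 6824 to 6982 CPM at P5, with 3 of 5 called lower. Chief cell markers summed to 20.9 to 25.8 CPM at P15 and 17.9 to 20.5 CPM at P5, with 1 of 2 tested called higher. Parietal cell markers summed to 2.73 to 3.68 CPM at P15 and 1.62 to 2.16 CPM at P5, with the 1 tested called higher. Their part was not tested.

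The change with passage differed between genotypes for many of the genes. The interaction is the change in Gpx4 KO minus the change in wild type, so a positive value is a smaller fall or a larger rise in Gpx4 KO. From P5 to P10, 9 of 34 genes were called higher and 1 lower, against 3.13% and 2.81% of all genes, and without wild type P15 in the fit 22 higher and 2 lower, among 3020 genes called in place of 897. The largest were Pgam1 (0.60 ± 0.06) and Ero1a (0.60 ± 0.13), and Slc16a3 (0.54), Ddit4 (0.49), Mxi1 (0.45), Car9 (0.36), Egln3 (0.29) and Pgk1 (0.28) followed. Egln3 lost its call without each of 8 of 12 libraries (Gpx4 KO P10 replicates 1 and 3, Gpx4 KO P5 replicates 1 and 2, wild type P10 replicates 1 and 3 and wild type P5 replicates 1 and 3) and Pgk1 without each of the 12, both with their highest adjusted p, 0.105 and 0.122, without wild type P5 replicate 1. Both also lost it without the low-count filter (adjusted p = 0.257 and 0.0608). Epas1 went the other way (-0.998 ± 0.14, adjusted p = 9.19e-05), rising in wild type and falling in Gpx4 KO organoids. Of the stomach epithelium markers 4 of 8 tested were called higher in this interaction and 1 lower. Of 2 chief cell markers tested 1 was called higher and 1 lower. Of 3 immune markers tested 1 was called higher, and the 1 parietal cell marker tested was called lower. The part of these markers was not tested.

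From P5 to P15, 20 genes were called higher in the interaction and 1 lower, against 19.7% and 18.6% of all genes. Of the other HIF targets 12 of 14 were higher, with a median of 0.68, and of the glycolysis genes 7 of 16, with a median of 0.10. With replicate 2 of wild type P15 alone the medians were 0.57 and 0.30, in a fit where 1 library stands for that group. With the gene length offset 12 and 8 were higher, with medians of 0.70 and 0.19, among 6202 genes called of all tested. Of the stomach epithelium markers 5 of 8 tested were called higher in the interaction, as were both chief cell markers tested. The 1 parietal cell marker tested and 1 of 5 epithelial markers were called lower. Of 3 immune markers tested 1 was called higher and 1 lower, and the part of these markers was not tested. Among the other HIF targets Adm (2.32 ± 0.23), Ankrd37 (1.77 ± 0.19), Vegfa (1.54 ± 0.08) and Ero1a (1.36 ± 0.13) had the largest values. Vegfa averaged 116 ± 2.60, 104 ± 3.12 and 131 ± 2.82 CPM at P5, P10 and P15 in Gpx4 KO, against 146 ± 1.61, 113 ± 1.54 and 56.5 ± 4.74 CPM in wild type (SD, n = 3 each). Its order between genotypes thus turned by P15. Among the glycolysis genes Pfkfb3 (1.61), Slc16a3 (1.05), Pdk1 (0.79) and Hk2 (0.71) had the largest values, Egln3 had 0.87, and Epas1 was again negative (-0.74).

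Set against Mist1- organoids at P5, Gpx4 KO organoids were lower in most of the set. None of the 34 genes was called higher and 27 were called lower by edgeR, against 10.2% and 10.9% of all genes. DESeq2 and limma also called 0 higher, and edgeR's unadjusted p was under 0.05 for 0 genes with a higher value. Fitted without wild type P15, 1 was higher and 31 lower, among 5981 genes called of all tested in place of 3182. Lower were 12 of 16 glycolysis genes, 12 of 14 other HIF targets and 3 of 4 oxygen sensing genes, with median log2 fold changes of -0.41, -0.54 and -0.28. Ndrg1 had 145, 137 and 140 CPM in Gpx4 KO and 335, 336 and 340 CPM in Mist1- libraries (-1.26 ± 0.05, adjusted p = 2.38e-13). Vegfa fell by 1.26, Ero1a by 1.16 and Ddit4 by 0.94, and among the glycolysis genes Gpi1 by 0.56, Pfkfb3 by 0.53, Hk2 by 0.52 and Pdk1 by 0.48. Slc16a3 did not pass (adjusted p = 0.597), with 123, 119 and 120 CPM in Gpx4 KO libraries and 130, 124 and 124 CPM in Mist1- libraries, nor did Hif1a (adjusted p = 0.237). Egln3 fell by 0.88 and Egln1 by 0.27. Epas1 fell by 0.29 (adjusted p = 0.037), a call lost without Gpx4 KO replicate 2 or 3 or Mist1- replicate 1 or 3, with an adjusted p up to 0.141, and with library totals alone or in limma (up to 0.11). The stomach epithelium list summed to 2714 to 2761 CPM in Gpx4 KO and 2337 to 2394 CPM in Mist1- organoids, with 5 of 8 tested called higher and 1 lower. The 1 endothelial marker tested was called lower, at a summed 0.734 to 1.21 CPM in Gpx4 KO and 1.72 to 2.72 CPM in Mist1- organoids. Immune markers summed to 9.75 to 10.7 CPM in Gpx4 KO and 16.4 to 18.3 CPM in Mist1- organoids, with 1 of 3 tested called lower, and their part was not tested.

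**Figure D4:**
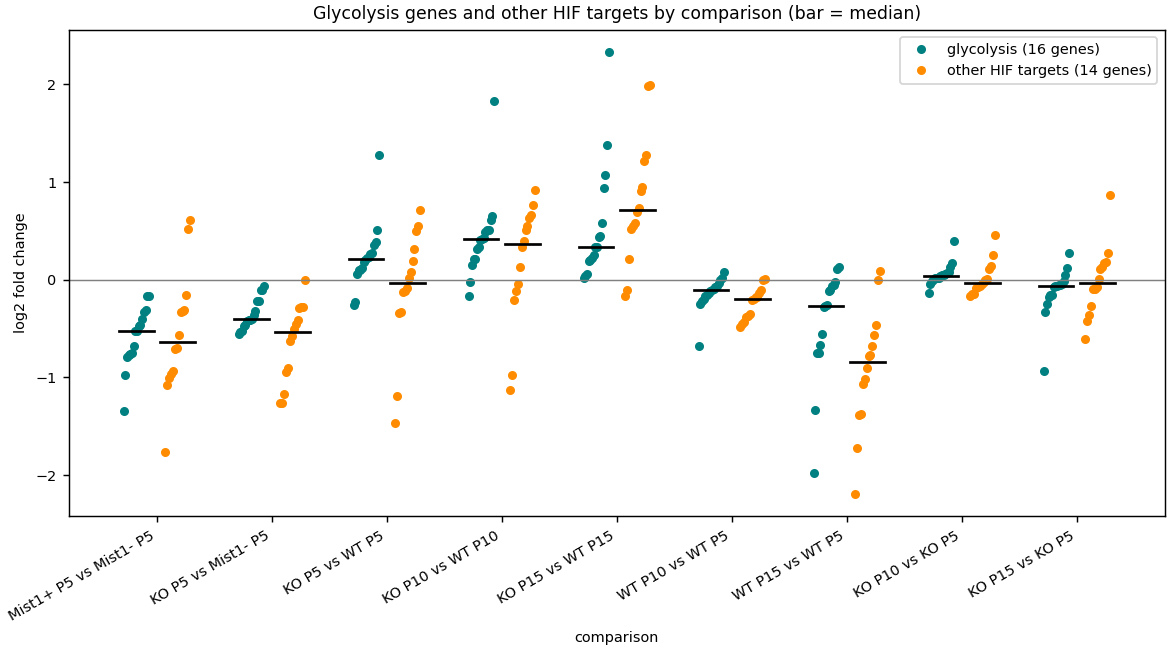
Log2 fold changes (y axis) of the 16 glycolysis genes and the 14 other HIF targets in each of 9 comparisons (x axis), each point a gene and each bar the median of its set. The sets lie together in Gpx4 KO against wild type at P10 (medians 0.41 and 0.36) and apart in wild type P15 against P5 (-0.26 and -0.84).

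The share of each library's gene counts that the sets took follows the same groups. The 16 glycolysis genes took 1.25 ± 0.00451%, 1.29 ± 0.0125% and 1.16 ± 0.00367% in Gpx4 KO at P5, P10 and P15, against 1.02 ± 0.000747%, 0.930 ± 0.00830% and 0.965 ± 0.111% in wild type and 1.54 ± 0.00934% in Mist1- organoids (SD, n = 3 each). The 14 other HIF targets took 0.246 ± 0.00148%, 0.255 ± 0.00235% and 0.214 ± 0.00181% in Gpx4 KO, against 0.231 ± 0.00188%, 0.184 ± 0.00314% and 0.114 ± 0.00985% in wild type and 0.439 ± 0.00347% in Mist1- organoids. Mist1- organoids held the highest share of both sets. The glycolysis share of wild type P15 was 1.08%, 0.866% and 0.945% in replicates 1, 2 and 3, against 0.921% to 0.936% at P10 and 1.02% in each P5 library. Replicate 2, the library without the length difference, lay below every P10 and P5 library, and replicate 1 above them. The share of the other HIF targets in wild type was lower at each passage than at the one before, with no overlap. A few abundant genes carry these shares, Pkm and Ldha in the glycolysis set and Ero1a in the other.

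**Figure D5:**
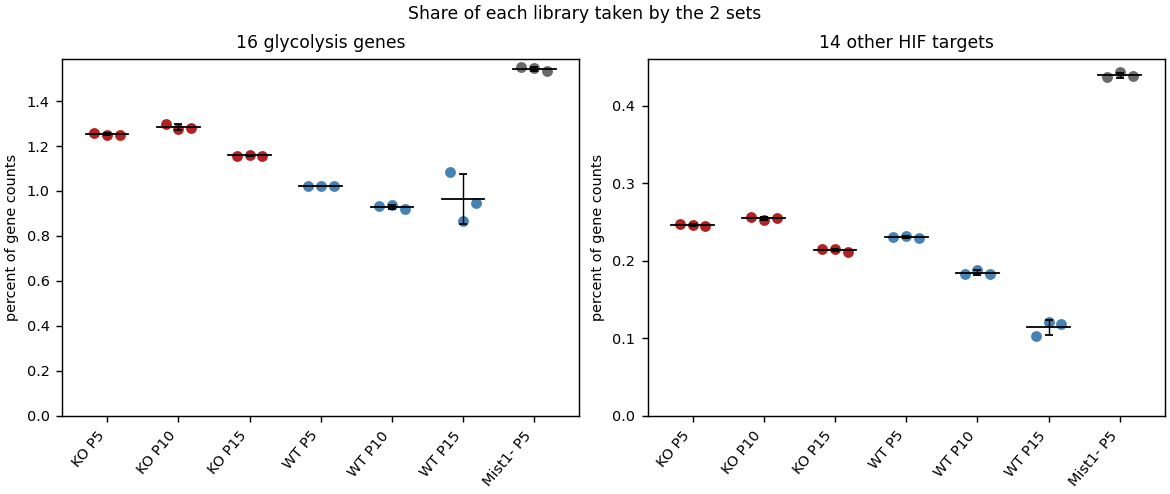
Percent of each library's gene counts (y axis from 0) taken by the 16 glycolysis genes (left) and the 14 other HIF targets (right) in the 21 libraries by group (x axis), with Gpx4 KO in red, wild type in blue and Mist1- in grey, and the mean and SD of 3 libraries in black. Mist1- P5 is highest in both, at 1.54% and 0.439%, and wild type P15 is lowest on the right, at 0.114%.

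Other genes of these pathways, on lists that do not hold the 34, moved less uniformly. Of 20 further glycolysis genes 15 were tested, and 4 were called higher and 4 lower in Mist1+ against Mist1- organoids, against 18.8% and 16.2% of all genes. Gapdh, the enzyme between aldolase and phosphoglycerate kinase, was among the lower (-0.54, adjusted p = 3.12e-05), with Aldoc, a minor aldolase (-0.95), while Pklr, the liver and red cell pyruvate kinase (1.11), and Bpgm (0.66) were higher. In Gpx4 KO against wild type the counts were 6 higher and 3 lower at P5 (13% and 17% of all genes), 6 and 2 at P10 (15.9% and 18.5% of all genes) and 4 and 2 at P15 (23.6% and 25.3% of all genes). The 4 of 15 higher at P15 are near the share of all genes. With the length offset 6 were higher and 3 lower, among 7227 genes called of all tested. The median log2 fold change at P15 was 0.17 in the full fit and 0.22 with the offset. With replicate 2 of wild type alone it was 0.25. Ldhb, the lactate dehydrogenase of oxidative tissues, rose by 0.68 at P5 and 0.65 at P10, and Pklr fell by 0.69 and 0.70. Of 13 regulators of HIF 1 was higher and 1 lower at P5, Vhl falling by 0.41, and the log2 fold changes of the 13 ran from -0.41 to 0.70. At P15 6 were higher and 4 lower, Cited2, which competes with HIF for a coactivator, rising by 0.83. The lowest value of these regulators at P15 was -0.62. With replicate 2 of wild type P15 alone the median log2 fold change of these regulators was 0.03, against 0.15 in the full fit. With the length offset 5 were higher and 2 lower, with a median of 0.03. Cited2 rose by 1.08 with replicate 2 alone and by 1.02 with the offset.

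Of 40 further hypoxia-induced genes 33 were tested. In Mist1+ against Mist1- organoids 11 were higher and 16 lower, in Gpx4 KO against wild type 14 and 11 at P5, 15 and 8 at P10 and 16 and 10 at P15, and in wild type P15 against P5 5 and 20. The shares of all genes in those comparisons were 18.8% and 16.2%, 13% and 17%, 15.9% and 18.5%, 23.6% and 25.3%, and 24.7% and 26.6%. With the length offset 18 were higher and 9 lower in Gpx4 KO against wild type at P15, among 7227 genes called of all tested. The median was 0.31, against 0.20 in the full fit and 0.29 with replicate 2 of wild type alone. In wild type P15 against P5 the offset gave 5 and 20, among 7756. The median there was -0.37, against -0.34 in the full fit and -0.41 with replicate 2 alone. Loxl2, a lysyl oxidase of the matrix, was lowest in Mist1+ against Mist1- (-4.58, adjusted p = 1.41e-08), and Nos2, the inducible nitric oxide synthase, followed (-3.14). Angptl4, a lipase inhibitor, was higher (2.83). Loxl2 and Nos2 were the highest in Gpx4 KO against wild type at P5 (3.50 and 3.26). The pentose phosphate pathway, a branch of glucose use that makes NADPH, had 7 of 7 genes lower in Gpx4 KO against wild type at P15 (median -0.48), where 25.3% of all genes were lower. With replicate 2 of wild type alone the median was -0.20, and with the length offset 6 of 7 were lower (median -0.37). At P5 2 of 7 were lower, where 17% of all genes were lower. Of 11 tested genes for the entry of pyruvate into mitochondria, 5 were higher and 2 lower in Gpx4 KO against wild type at P5 (13% and 17% of all genes), the kinase gene Pdk2 falling by 0.76 at P5 and rising by 1.11 at P15. Of 13 genes of the integrated stress response, 11 were lower and Sesn2 higher in Mist1+ against Mist1- organoids, with Trib3 (-3.33) and Chac1 (-2.20) lowest, and 12 were lower in Gpx4 KO against Mist1-. Of all genes 16.2% and 10.9% were lower in these comparisons.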

How the data were processed

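The deposited table gives read counts per gene and library, raw and whole, as the authors counted them, and FPKM that the authors computed from them. Per the submitters' processing notes the tools were cutadapt 1.9.1, HISAT2 2.2.1 and HTSeq 0.6.1, and the build GRCm38.p5. Of 52073 gene IDs shared with GENCODE M21 only 1472 had the same coordinates, so none from the table are given. The 34 genes and all lists were chosen with earlier results of these data known, and no list is independent support.

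The fit was made in R 4.3.3 with edgeR 4.0.16, as group means over all 21 libraries, filterByExpr (minimum count 10, minimum total 15), TMM scaling and the robust quasi-likelihood F-test. Adjusted p is by Benjamini-Hochberg over 15115 genes with a threshold of 0.05. SE is the log2 fold change over the square root of F. The fit was also run on simulated data with the same spread per gene in all groups. That setting lacks the wider spread and length difference of wild type P15, so nothing is concluded from it. Duplicated symbols were read from the row with most counts: a second row of Aldoa held 0.0357% of its counts. In each comparison log2 fold changes are named for at most the 4 highest and 4 lowest called genes of each role, and for at most 2 in each direction of a pathway list. Alternatives were another scaling, no filter or a mean FPKM of at least 1, DESeq2 1.42.0, limma 3.58.1 on log2(FPKM + 1) and log2(FPKM + 0.1), fewer groups in the fit, a replicate block, moderation that is not robust, and leaving out each library. Libraries held 13805585 to 19608956 counts. Outside wild type P15, the variance between a pair of libraries of a group was 1.57 to 2.64 times that of counting alone. Counting error thus makes up much of that spread, most for genes with few counts such as Adm.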

Additional observations from a re-analysis of the deposited data

Results flagged for a closer look

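The change with passage differed between Gpx4 KO and wild-type organoids, by a test of the interaction itself in edgeR, for 19 named results. They are at most the 4 highest and 4 lowest called genes of each role. From P5 to P10, 9 of 34 genes were called higher and 1 lower, against 3.13% and 2.81% of all genes. From P5 to P15, 20 were called higher and 1 lower, against 19.7% and 18.6% of all genes. Each value is the log2 change in Gpx4 KO minus that in wild type. From P5 to P10 it was 0.60 for Pgam1, 0.54 for Slc16a3, 0.28 for Pgk1, 0.60 for Ero1a (listed as Ero1l), 0.49 for Ddit4, 0.45 for Mxi1, 0.36 for Car9, 0.29 for Egln3 and -0.998 for Epas1. The adjusted p ran from 2.02e-06 for Pgam1 to 0.0334 for Pgk1. Leaving out single libraries ended the P10 calls of Pgk1 and Egln3, as given above. From P5 to P15 it was 1.61 for Pfkfb3, 1.05 for Slc16a3, 0.79 for Pdk1, 0.71 for Hk2, 2.32 for Adm, 1.77 for Ankrd37, 1.54 for Vegfa, 1.36 for Ero1a, 0.87 for Egln3 and -0.74 for Epas1. The adjusted p ran from 1.46e-12 for Vegfa to 0.000318 for Epas1. Slc16a3, Ero1a, Egln3 and Epas1 are in both lists with the same sign, and the P5 libraries are shared. Values from P5 to P15 rest on the 3 wild type P15 libraries that differ along gene length.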

How the results depend on the processing

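Of 125 named log2 fold changes 110 kept their call without each library and under every other alternative run, 13 lost it without at least 1 library and 13 under another alternative. The sign changed for 1, Ddit4 in Gpx4 KO P15 against wild type P15 with the gene length offset (0.0667). Genes called among the 34 moved by over 1.5 times in 5 of 11 comparisons. Calls over all genes moved as well and stand in brackets. Fitted on the groups compared, Gpx4 KO against wild type at P5 had 32 in place of 20 (7196 in place of 4547). Wild type P10 against P5 had 27 in place of 12 both so and without wild type P15 in the fit (2850 and 2765 in place of 738). Gpx4 KO P10 against P5 had 15 and 18 in place of 5 (3055 and 3327 in place of 1150). Gpx4 KO P15 against P5 had 27 and 26 in place of 13 (4637 and 4494 in place of 1960). The interaction at P10 had 24 and 24 in place of 10 (2931 and 3020 in place of 897). Gpx4 KO P10 against P5 also had 3 with library totals alone, without the filter, with limma at either pseudocount and with the replicate block (1102 to 1201). Replicate numbers did not pair libraries (correlations of deviations from -0.036 to 0.095 over 63 pairs of libraries with the same number), and the replicate block moved no other count by over 1.5 times.

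Leaving out 1 library gave 2 to 3 called genes for Gpx4 KO P10 against P5, among 828 to 883 of all genes. It gave 8 to 12 for wild type P10 against P5, among 503 to 533, and 7 to 9 for the interaction at P10, among 710 to 748. For Gpx4 KO against wild type at P15 it gave 26 to 33, among 6297 to 9113. It gave 23 to 31 for wild type P15 against P5, among 6809 to 9241, and 21 to 28 for the interaction at P15, among 5116 to 7939. Library totals alone moved the median of all genes by under 0.1 on the log2 scale. The causes were not tested. The lowest counts of a library were 25 for Adm, 115 for Ankrd37 and 182 for Slc16a3.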
